A study of Mus musculus with 48 samples.

Results

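Hippocampal RNA of APP/PS1 mice that drank MSX-3 was compared with hippocampal RNA of APP/PS1 mice that drank plain water (H2O), in 6 mice per group. These 12 arrays, of 48 in the series, were chosen by the genotype, agent and tissue given in the sample labels, and each came from a different mouse. All 12 mice were male and heterozygous for the APPswe/PS1dE9 transgenes on a C57Bl6/J background. MSX-3 was dissolved in the drinking water at 0.3 g/L from 3 months of age (4 months in the design text of the series), and tissue was taken at 9 to 10 months. The other arrays held the cortex of the same mice and both tissues of wild-type (WT) littermates given MSX-3 or H2O, 6 mice per group. The transgenes are driven by a Prnp promoter vector and so do not follow the endogenous App gene, and a whole hippocampus holds many cell types, so that fewer cells of a type and less RNA per cell cannot be told apart.

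MSX-3 is a prodrug that releases MSX-2, an antagonist selective for the adenosine A2A receptor. This receptor, encoded by Adora2a, responds to extracellular adenosine and raises cAMP through Gs-type G proteins. It is most abundant in striatal projection neurons, and in hippocampus it is found at lower levels on nerve terminals and glia. Around amyloid plaques, microglia switch on a characteristic set of genes that includes Trem2, Tyrobp, Clec7a, Cst7 and Itgax, and astrocytes raise Gfap. The comparison asks which hippocampal transcripts differed after long-term MSX-3 that was given while amyloid pathology developed.

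Levels below are log2 intensities relative to the 75th percentile of each array, so that 0 is the level of that percentile, and levels of different probes are not set against each other. The 12 markers of hippocampal fields, among them Prox1 of dentate granule cells, Wfs1 and Fibcd1 of CA1, were well above background on all 12 arrays. The Prnp probe, which also reads the transgene vector, lay between 6.998 and 7.33 in the 12 APP/PS1 mice and between 5.12 and 5.60 in the 12 WT mice, without overlap. Pairs of the 12 arrays correlated at 0.966 to 0.993. MSX-3 mice 267 and 319 were the only ones of the 12 scanned on the second of 2 scan days, and they lay at -83.1 and -73.5 on the first principal component (39% of the variance), outside the range of -22 to 58.8 of the other mice. No H2O array of these mice was scanned that day, so the second scan day and treatment cannot be told apart for these mice, and values from the first day alone (4 MSX-3 and 6 H2O mice) are given beside many results. Values are also given for the 2 slides that held both groups (4 MSX-3 and 2 H2O mice), from a fit with slide as a term. On these slides several of the genes and lists below had the other direction.

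No transcript differed between MSX-3 and H2O mice at an adjusted p under 0.05 and a fold change of 1.5. Of 38128 probes tested with limma, 0 (0%) passed, and the smallest adjusted p was 0.976. With no minimum fold change the count was also 0. Without adjustment, 1071 probes (2.81%) were higher and 398 (1.04%) lower with MSX-3 at p under 0.05, together 3.85% of the probes. This tilt toward higher values varied with the scaling and with the arrays used. Higher probes made up 72.9% of the 1469, but 46.2% of 1456 after quantile normalization, 52.4% of 691 after normexp background correction and 59.5% of 1015 on the first scan day.

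The arrays bounded most differences. The 95% interval of the difference, not adjusted for the number of probes, lay inside 1.5-fold in both directions for 27720 probes (72.7%). Among the 29655 probes well above background on all 12 arrays this share was 86%. The median residual SD between mice was 0.225 and the median half-width of the interval 0.277, both on the log2 scale. A mean difference of at least 1.5-fold was seen for 1414 probes, of which 202 were well above background on every array. The values of the 6 MSX-3 mice did not overlap those of the 6 H2O mice for 50 of 37947 probes with a value on every array (0.132%), 28 higher and 22 lower. Of these 50, 28 were well above background on all 12 arrays, and 0 of those 28 differed by 1.5-fold.

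**Figure D1:**
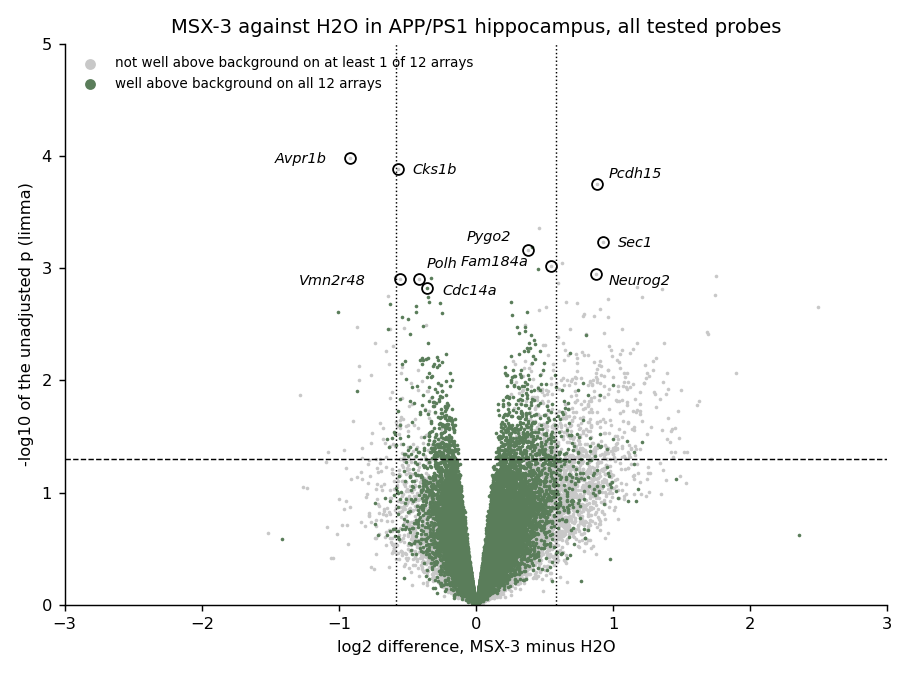
Difference between MSX-3 and H2O mice (x axis, log2) against the strength of the unadjusted test (y axis, -log10 p) for each tested probe in APP/PS1 hippocampus, with dotted lines at 1.5-fold and a dashed line at p of 0.05. The probes with the largest differences were mostly not well above background on every array (grey), and none of the circled probes, the 5 named genes with the smallest p in each direction, had an adjusted p below 0.976.

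The named genes with the smallest p were mostly dim. Avpr1b, a vasopressin receptor characteristic of hippocampal field CA2, lay at -4.06, -3.79 and -3.69 (lowest, median and highest mouse) with MSX-3 and at -3.30, -2.95 and -2.26 with H2O. All 6 MSX-3 mice were thus below all 6 H2O mice. The difference was -0.92 on the log2 scale, MSX-3 minus H2O (95% interval from -1.27 to -0.56, adjusted p = 0.976), and it was -0.94 on the first scan day. Cks1b, a regulatory subunit of cyclin-dependent kinases, ranged from -4.91 to -4.43 with MSX-3 and from -4.27 to -3.93 with H2O, a difference of -0.57 (from -0.79 to -0.34). Its second probe differed by -0.06. Polh, a translesion DNA polymerase, and Cdc14a, a phosphatase, also did not overlap between the groups and differed by -0.41 and -0.35. The vomeronasal receptor gene Vmn2r48 overlapped and differed by -0.56, and its second probe by -0.14.

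Among the genes higher with MSX-3, Pygo2, a coactivator of Wnt signalling, ranged from -4.20 to -3.98 with MSX-3 and from -4.69 to -4.25 with H2O, without overlap. It differed by 0.38 (from 0.20 to 0.56), while its other probe differed by -0.09. Sec1, which encodes a fucosyltransferase, was well above background in 4 MSX-3 mice and in 0 H2O mice. Its mean difference is therefore given as a bound, 1.48-fold higher with MSX-3 (adjusted p = 0.976). Such a bound does not take in the spread between mice. Pcdh15, a cadherin of sensory hair cells, was likewise well above background in 4 MSX-3 and 0 H2O mice, with a bound of 1.06-fold higher. Another of its 5 probes differed by -0.13. In WT mice the Pcdh15 probe was well above background in 3 with H2O and in 3 with MSX-3. It thus entered the tests only through the APP/PS1 MSX-3 mice, and its 4 such mice were a condition of being tested. Fam184a differed by 0.55 (0.06 at its second probe) and Neurog2, a proneural transcription factor, by 0.87, each well above background in 5 MSX-3 mice and in 3 and 1 H2O mice. Sec1 was the single probe that passed both thresholds when 1 mouse was left out of the comparison of MSX-3 with H2O. This was without MSX-3 mouse 281, whose value of -5.55 was the lowest of its group (adjusted p = 0.0212). The H2O values in that fit were not well above background in any mouse. In WT mice Sec1 was well above background in 6 with H2O and in 4 with MSX-3, and differed by -0.745.

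The genes of the response to amyloid were high in both APP/PS1 groups. Over all probes, 294 (0.783%) were higher in every MSX-3-treated APP/PS1 mouse than in every WT H2O mouse and 287 (0.764%) in every H2O-treated one, against 73 (0.194%) and 170 (0.453%) that were lower. Of the 20 measured genes of plaque-induced microglia, 13 lay above the WT H2O range in the MSX-3 mice and 13 in the H2O mice. The counts were 5 and 4 of 10 chemokines, 6 and 6 of 11 antigen presentation genes, 8 and 8 of 13 interferon response genes with a value on every array, and 6 and 4 of 13 complement genes. Both sets of counts share the 6 WT H2O mice, 4 of which were scanned on the second day.

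Cst7, which encodes an inhibitor of lysosomal cysteine proteases, shows the size of this response. It lay at 0.23, 0.52 and 1.26 (lowest, median and highest mouse) with MSX-3 and at -0.23, 0.36 and 0.81 with H2O, against -5.10, -4.32 and -2.74 in WT H2O mice. Between the APP/PS1 groups it differed by 0.28 (from -0.12 to 0.68), and by -0.11 on the slides that held both groups. Clec7a, the receptor Dectin-1, lay at -0.9995, -0.62 and -0.29 with MSX-3 and at -1.19, -0.96 and -0.61 with H2O, and its WT H2O range was -4.48 to -3.87. Its difference of 0.32 had an interval from 0.02 to 0.61 (adjusted p = 0.976) and was 0.24 on the first day. For Itgax, an integrin subunit of activated myeloid cells, the values were -3.15, -2.41 and -2.01 with MSX-3 and -2.55, -2.37 and -1.81 with H2O, and the difference was -0.16 (from -0.57 to 0.26). The groups overlapped for all 3 genes.

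Across the 20 genes of plaque-induced microglia, 12 were higher and 8 lower with MSX-3, with a median difference of 0.08 beside -0.01 over 16737 named genes, 47.4% of which were higher. On the slides that held both groups the median of the list was -0.04. Ch25h, an enzyme that makes 25-hydroxycholesterol, and Clec7a were the 2 members with an unadjusted p under 0.05. Ch25h lay at -2.43, -2.24 and -1.88 with MSX-3 and at -2.86, -2.65 and -2.34 with H2O, a difference of 0.43 (from 0.16 to 0.70, adjusted p = 0.976) that was 0.42 on the first day. Cd68, a lysosomal membrane protein of phagocytes, ranged from 0.89 to 1.28 and from 0.67 to 1.28, and differed by 0.14 (from -0.09 to 0.37), but by -0.07 on the slides that held both groups. Among markers of resting microglia, 12 of 15 were higher, with a median of 0.07 that was -0.03 on those slides. P2ry12, the purinergic receptor that guides microglial processes, differed by 0.16 (from -0.06 to 0.38). Siglech, the 1 member with an unadjusted p under 0.05, differed by -0.16 (from -0.30 to -0.02), while its second probe differed by 0.22. The first Siglech probe was very bright, between 7.38 and 7.66 with MSX-3 and between 7.60 and 7.74 with H2O. Whether it reads Siglech alone was not tested. Of the 15 lysosomal genes 12 were higher, with a median of 0.05, and the intervals of all 15 lay inside 1.5-fold. Tfeb, the transcription factor that controls lysosome formation, differed by 0.16, and by -0.04 on those slides, and its 4 probes ranged from -0.15 to 0.16.

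**Figure D2:**
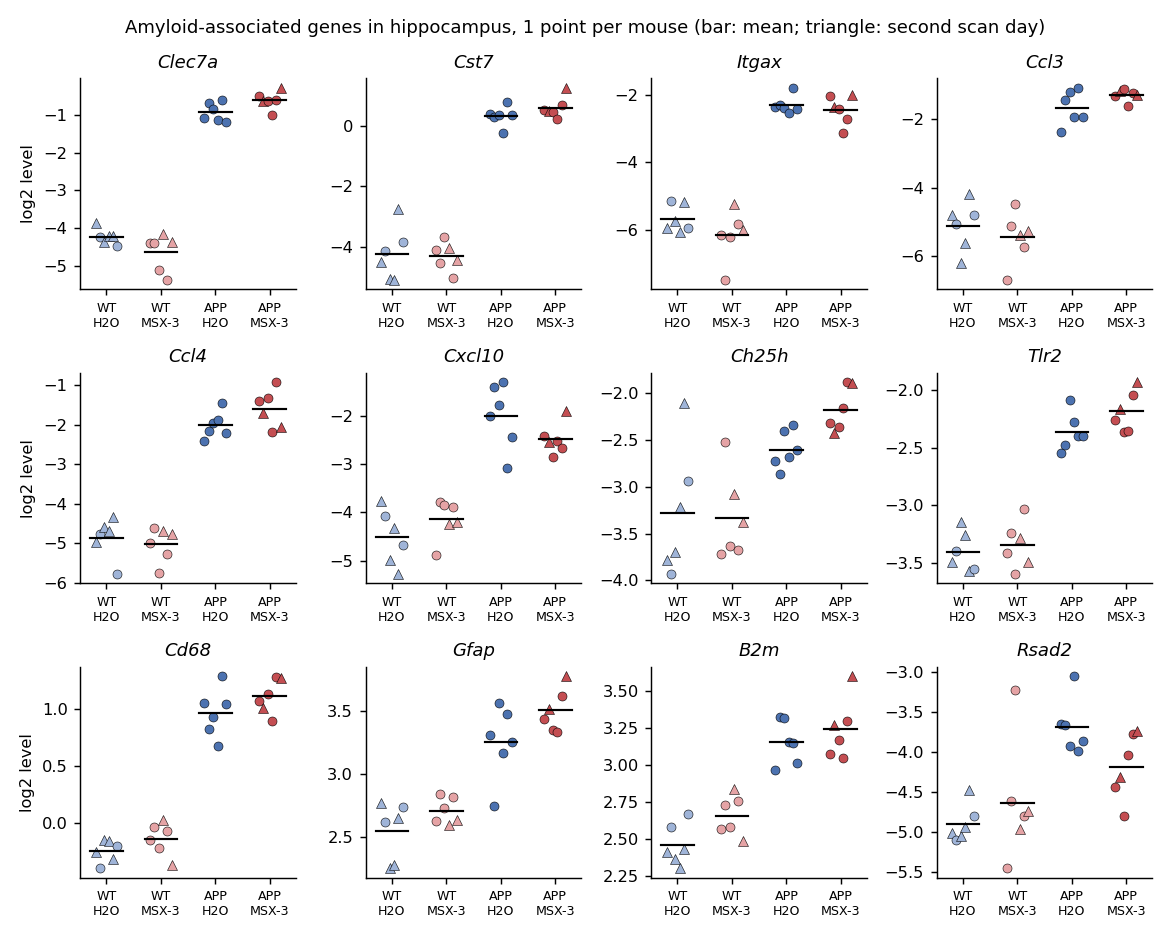
Log2 level of 12 genes in each hippocampus (y axis), by genotype and drink (x axis), with bars at the group means and triangles for arrays of the second scan day. For Clec7a, Cst7, Itgax, Ccl3, Ccl4, Cxcl10, Tlr2, Cd68 and B2m both APP/PS1 groups lay above both WT groups, whereas the MSX-3 and H2O groups of APP/PS1 mice overlapped for each of the 12 genes.

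Chemokine genes differed in both directions. Ccl3, encoding a chemokine of activated microglia, lay at -1.61, -1.26 and -1.12 with MSX-3 and at -2.37, -1.67 and -1.08 with H2O, and the difference was 0.37 (from -0.07 to 0.81). The closely related Ccl4 lay at -2.18, -1.55 and -0.93 and at -2.43, -2.06 and -1.45, with a difference of 0.42 (from -0.06 to 0.90) and of 0.56 on the first day. Both genes overlapped between the groups. Ccl5, a chemokine for T cells, differed by -0.29 (from -0.87 to 0.29) and by 0.01 on the slides that held both groups. Cxcl10, an interferon-induced chemokine, lay at -2.85, -2.53 and -1.89 with MSX-3 and at -3.08, -1.89 and -1.30 with H2O, and differed by -0.48 (from -1.08 to 0.13). On the same slides this difference was 0.15. Of 10 measured chemokine genes 4 were higher and 6 lower, with a median of -0.03 (0.02 on these slides), and 4 of the 10 had an interval inside 1.5-fold.

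Pattern recognition and cytokine genes were higher in 11 of 14 cases, with a median of 0.12, but in 8 of 14 with a median of 0.01 on the first scan day. Tlr2 lay at -2.36, -2.21 and -1.93 with MSX-3 and at -2.55, -2.40 and -2.09 with H2O, and differed by 0.18 (from -0.04 to 0.40). Tlr1, its partner in lipopeptide recognition, differed by 0.43 (from 0.06 to 0.80) and had the only unadjusted p under 0.05 in the list, with 6 MSX-3 and 4 H2O mice well above background. Nfkbia, the inhibitor of NF-kB, differed by -0.22 (from -0.50 to 0.05). Complement genes were higher in 9 of 13 cases with a median of 0.04, which was -0.03 on the slides that held both groups. Itgb2, the shared beta subunit of the complement receptors CR3 and CR4, differed by 0.25 (from -0.01 to 0.51) and Cd59a, which blocks the membrane attack complex, by -0.51 (from -1.16 to 0.14).

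Interferon response genes were lower in 12 of 14 cases, with a median of -0.16, and in 11 of 14 on the first day with a median of -0.21. Rsad2, the antiviral protein viperin, lay at -4.80, -4.17 and -3.74 with MSX-3 and at -3.98, -3.76 and -3.05 with H2O. The groups overlapped, and the difference was -0.50 (from -0.94 to -0.05, adjusted p = 0.976). It was the only member of the list with an unadjusted p under 0.05. Ifi27l2a, which is strongly interferon induced, ranged from -0.62 to 0.79 and from -0.56 to 0.47, with a difference of 0.19. The list as a whole varied more within groups than between them. Its mean level, taken relative to the 12 mice, ranged from -0.45 to 0.41 with MSX-3 and from -0.34 to 0.59 with H2O, and on the slides that held both groups the median difference of its members was 0.16. Antigen presentation genes were higher in 6 of 11 cases, with a median of 0.02, but in 3 of 11 with a median of -0.01 on the first day. Of these, B2m, the light chain of MHC class I, differed by 0.09 (from -0.14 to 0.31; -0.01 on the first day) and the immunoproteasome subunit Psmb8 by -0.04 (from -0.32 to 0.24), which was 0.10 on the slides that held both groups.

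Astrocyte genes differed in both directions. Gfap, the intermediate filament of reactive astrocytes, lay at 3.33, 3.48 and 3.77 with MSX-3 and at 2.75, 3.28 and 3.56 with H2O, with WT H2O mice between 2.26 and 2.77. The difference between the APP/PS1 groups was 0.25 (from -0.04 to 0.54) and was 0.15 to 0.31 when single mice were left out. It was 0.18 (from -0.15 to 0.51) on the first day and 0.07 (from -0.29 to 0.42) on the slides that held both groups. Lcn2, a secreted lipocalin of reactive astrocytes, ranged from -3.80 to -2.65 with MSX-3 and from -3.95 to -3.12 with H2O, and differed by 0.53 (from 0.09 to 0.98). This difference was 0.37 (from -0.12 to 0.85) on the first day and 0.33 (from -0.45 to 1.11) on the slides that held both groups. Lcn2 lay between -4.36 and -1.60 in WT H2O mice, a range that held both APP/PS1 groups. It was the 1 of 14 genes of reactive astrocytes with an unadjusted p under 0.05. Fbln5 differed by -0.28. Of the 14, 8 were higher, with a median of 0.07 that was -0.02 on the slides that held both groups. General astrocyte genes were higher in 4 of 12 cases with a median of -0.02 (9 of 12 and 0.01 on the first day), and the intervals of all 12 lay inside 1.5-fold. The water channel gene Aqp4 differed by -0.09 and S100b by 0.06.

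No gene of the drug's target pathway was called. Adora2a lay at -3.67, -3.25 and -2.55 with MSX-3 and at -4.63, -3.22 and -2.14 with H2O. These ranges overlapped almost fully, and the difference of 0.16 had a wide interval, from -0.56 to 0.89. The neuronal adenosine receptor gene Adora1 lay at 3.83, 3.93 and 4.04 and at 3.87, 4.05 and 4.18, and differed by -0.12 (from -0.26 to 0.03), with its 3 probes between that and 0.01. Adk, the kinase that clears adenosine, differed by 0.24 (from -0.02 to 0.49) and by 0.29 (from 0.02 to 0.57) on the first day. Of 12 measured genes of adenosine receptors, transporters and enzymes 4 were higher and 8 lower, with a median of -0.07, and 0 had an unadjusted p under 0.05. Nt5e, the ectoenzyme that makes extracellular adenosine, differed by -0.21, Adora3 by -0.18 and Adora2b by 0.10, all 3 chosen here after their values were seen.

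Genes of cAMP signalling showed no called difference either. Of 20 cAMP signalling genes 7 were higher and 13 lower, with a median of -0.05, and 19 intervals lay inside 1.5-fold. Crem, a cAMP-responsive transcription factor, differed by 0.16 (from -0.06 to 0.37) and the adenylyl cyclase gene Adcy8 by -0.34 (from -0.75 to 0.07). The probes of Crem ranged from -0.19 to 0.16, and the second probe of Adcy8 differed by 0.02. Immediate early genes, which neurons induce through cAMP and calcium, were lower in 18 of 20 cases, with a median of -0.12, and in 19 of 20 on the first day with a median of -0.17. The count at an unadjusted p under 0.05 was 0 of 20. Their mean level, relative to the 12 mice, ranged from -0.44 to 0.19 with MSX-3 and from -0.24 to 0.41 with H2O, so the groups overlapped. Fos lay at -1.73, -1.07 and -0.18 with MSX-3 and at -1.30, -0.88 and 0.15 with H2O, and Arc at 1.76, 2.31 and 2.83 and at 2.07, 2.56 and 3.29. Their differences were -0.30 and -0.22 (both genes chosen after their values were seen). Klf4 differed by -0.32 (from -0.77 to 0.13) and Nr4a3 by 0.24 (from -0.12 to 0.60), but Nr4a3 by -0.01 on the first day and by -0.09 on the slides that held both groups.

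Most synaptic genes were bounded within 1.5-fold. The postsynaptic scaffold gene Dlg4 (PSD-95) lay at 1.94, 2.26 and 2.33 with MSX-3 and at 1.95, 2.19 and 2.36 with H2O. The groups overlapped, and the difference was 0.05 (from -0.16 to 0.27), with its 3 probes between -0.12 and 0.05. Ppp1r9b (spinophilin) differed by 0.01 (from -0.17 to 0.19; -0.15 on the slides that held both groups) and the neuronal nuclear protein gene Rbfox3 (NeuN) by -0.08 (from -0.29 to 0.12; up to 0.04 at its other probes). Among glutamate receptor genes, Gria1 differed by -0.04 (from -0.20 to 0.11) and by 0.01 on the first day, Gria2 by 0.07 (from -0.08 to 0.22) and Grin2b by -0.16 (from -0.48 to 0.17), with 0.06 at its second probe. The intervals of all 19 measured receptor genes, of 16 of 17 postsynaptic genes and of 22 of 23 presynaptic genes lay inside 1.5-fold.

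The presynaptic exception was Rims1, a scaffold protein of the active zone. It lay at -0.31, 0.05 and 0.33 with MSX-3 and at -0.02, 0.52 and 0.77 with H2O. The groups overlapped, the difference was -0.45 (from -0.80 to -0.10, adjusted p = 0.976) and its 3 probes differed by between -0.45 and 0.02. Presynaptic genes were lower in 18 of 23 cases with a median of -0.06, but in 13 of 23 with a median of -0.02 on the first day. Neuronal genes were lower in 11 of 12 cases with a median of -0.07, against 7 of 12 with a median of -0.02 on the first day.

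**Figure D3:**
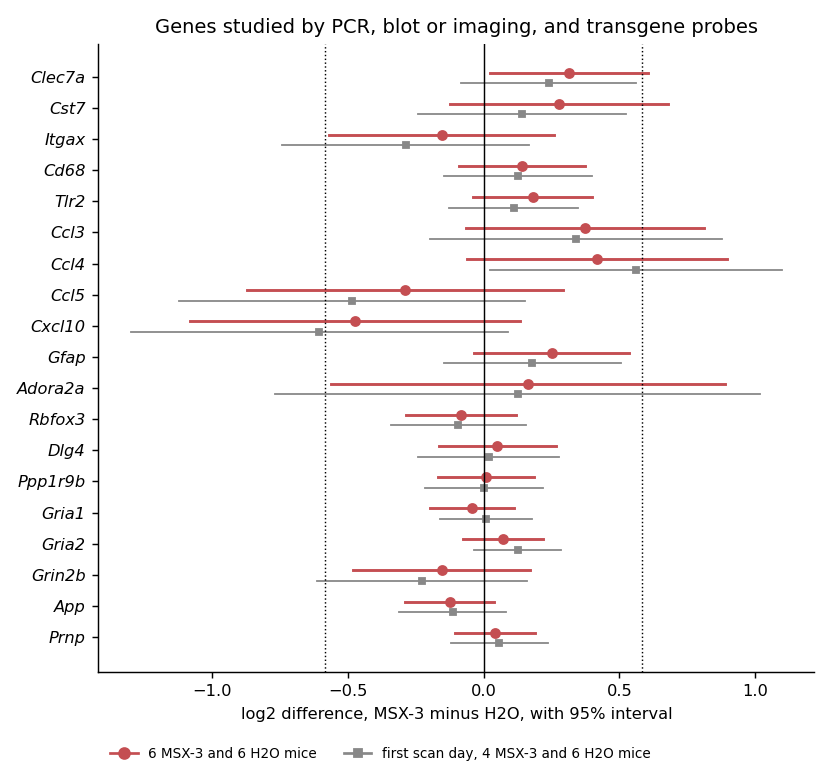
Difference between MSX-3 and H2O mice (x axis, log2, bars give the 95% interval) for 19 genes, namely those followed by PCR, blot or imaging, those most changed on the arrays of the study, and the transgene probes. Red circles are all 12 mice and grey squares the first scan day, dotted lines mark 1.5-fold, and the 12-mouse intervals of the synaptic genes from Dlg4 to Grin2b lie inside them, while the first-day interval of Grin2b, from -0.61 to 0.16, does not.

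Genes of APP processing and Abeta clearance were lower in 16 of 23 cases, with a median of -0.05, and in 11 of 23 with a median of 0.01 on the first day. App, whose probe overlapped between APP/PS1 and WT mice (5.36 to 6.01 in WT), lay at 5.59, 5.65 and 5.82 with MSX-3 and at 5.62, 5.83 and 5.96 with H2O, and differed by -0.12 (from -0.29 to 0.04). Its second probe differed by 0.15. The transgene vector probe Prnp differed by 0.04 (from -0.11 to 0.19), and by -0.03 on the slides that held both groups. Bace2, a homologue of the beta-secretase, lay at -2.00, -1.41 and -0.30 with MSX-3 and at -1.09, -0.76 and -0.28 with H2O. It differed by -0.60 (from -1.13 to -0.07, adjusted p = 0.976), the only member with an unadjusted p under 0.05, and by -0.42 (from -0.99 to 0.14) on the first day. Aph1a, a subunit of gamma-secretase, differed by 0.08 (from -0.06 to 0.22).

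Markers of tissue next to the hippocampus and of other cells set single mice apart. The choroid plexus list (10 genes) lay 3.52 above the 12-mouse mean in H2O mouse 259 and 3.1 above it in MSX-3 mouse 283, and between -1.34 and -0.07 in the other mice. Ttr, the transthyretin of choroid plexus, accordingly spanned 0.16 to 7.27 with MSX-3 and -1.60 to 7.56 with H2O, with medians of 1.87 and 0.81. Clic6, Folr1 and Kcnj13 of the same tissue were, with Ttr and Zfp438, the genes with the largest spread between mice. The thalamus list was highest in H2O mouse 261 (1.58) and MSX-3 mouse 283 (1.14), against -0.71 to 0.07 in the others. Among its members, 7 of 8 were lower with MSX-3, with a median of -0.26 that was 0.10 on the slides that held both groups. Lef1 differed by -0.60 (from -1.35 to 0.15) and Calb2 by 0.16, which was -0.28 on those slides.

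Blood genes were higher in 7 of 7 cases, with a median of 0.80, and in 7 of 7 on the first day with a median of 1.17. The level of the list was highest in MSX-3 mouse 293 (1.79) and lowest in H2O mouse 325 (-1.01), and the groups overlapped. The haemoglobin gene Hba-a1 (chosen after its values were seen) lay at 1.68, 2.69 and 5.93 with MSX-3 and at 1.10, 2.36 and 3.87 with H2O. Slc4a1, the red cell anion exchanger, differed by 0.94 (from 0.11 to 1.77), with 5 MSX-3 and 2 H2O mice well above background. The part of residual blood in the other differences was not tested.

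Oligodendrocyte genes were lower in 9 of 10 cases, with a median of -0.22, but in 7 of 10 with a median of -0.03 on the first day and of 0.25 on the slides that held both groups. Mal differed by -0.31 (from -0.76 to 0.14) and Mog by 0.14 (from -0.20 to 0.49). Mal differed by 0.12 on those slides, and the second probe of Mog by -0.05. Endothelial and mural cell genes were lower in 11 of 12 cases with a median of -0.10, and in 9 of 12 with a median of -0.02 on the first day. The exception was Pecam1, an endothelial adhesion molecule, which differed by 0.35 (from -0.03 to 0.74), while the receptor gene Flt1 differed by -0.28. Precursors of oligodendrocytes, inhibitory neurons and immature neurons had medians between -0.05 and 0.02.

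**Figure D4:**
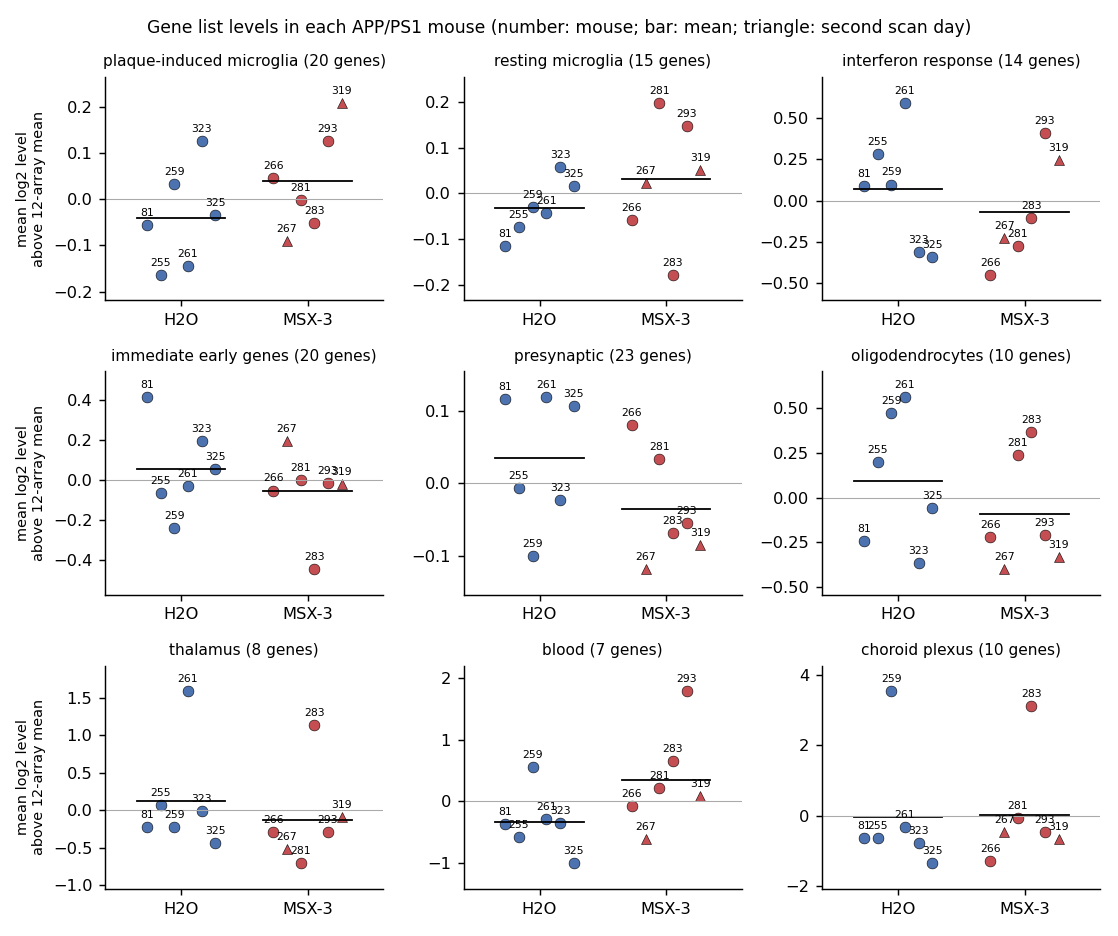
Mean log2 level of 9 gene lists in each APP/PS1 mouse (y axis, relative to the mean of the 12 mice), with H2O mice in blue, MSX-3 mice in red, mouse numbers above the points and triangles for the second scan day. Mice 259 and 283 stand out for choroid plexus, 261 and 283 for thalamus and 293 for blood, and the 2 groups overlapped in each list.

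Striatal genes, where the A2A receptor is most abundant, were higher in 9 of 13 cases with a median of 0.07. Drd2, the dopamine receptor that striatal neurons express together with Adora2a, lay at -5.04, -4.63 and -3.38 with MSX-3 and at -5.49, -5.21 and -5.10 with H2O. The groups did not overlap. The difference was 0.91 (from 0.30 to 1.51, adjusted p = 0.976), and it was 0.45 (from 0.19 to 0.71) on the first day. Only 1 H2O mouse was well above background, against 5 MSX-3 mice. Drd1, of the other class of striatal neurons, differed by -0.15, and by 0.17 on the slides that held both groups. Hippocampal field genes were higher in 5 of 12 cases with a median of -0.03 (0.03 on those slides), and neocortical genes in 6 of 9 with a median of 0.04. Tdo2 of dentate granule cells differed by 0.26 and the transcription factor gene Zbtb20 by -0.17.

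Clock, glucocorticoid and heat shock genes had medians between -0.04 and 0.01. The clock gene Arntl differed by 0.25 (from -0.02 to 0.53) and Nr1d2 by -0.13 (from -0.31 to 0.04). Errfi1, a feedback inhibitor of growth factor receptors, lay between 1.58 and 2.03 with MSX-3 and between 1.96 and 2.24 with H2O. It differed by -0.21 (from -0.39 to -0.03) and had the only unadjusted p under 0.05 in these lists.

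**Figure D5:**
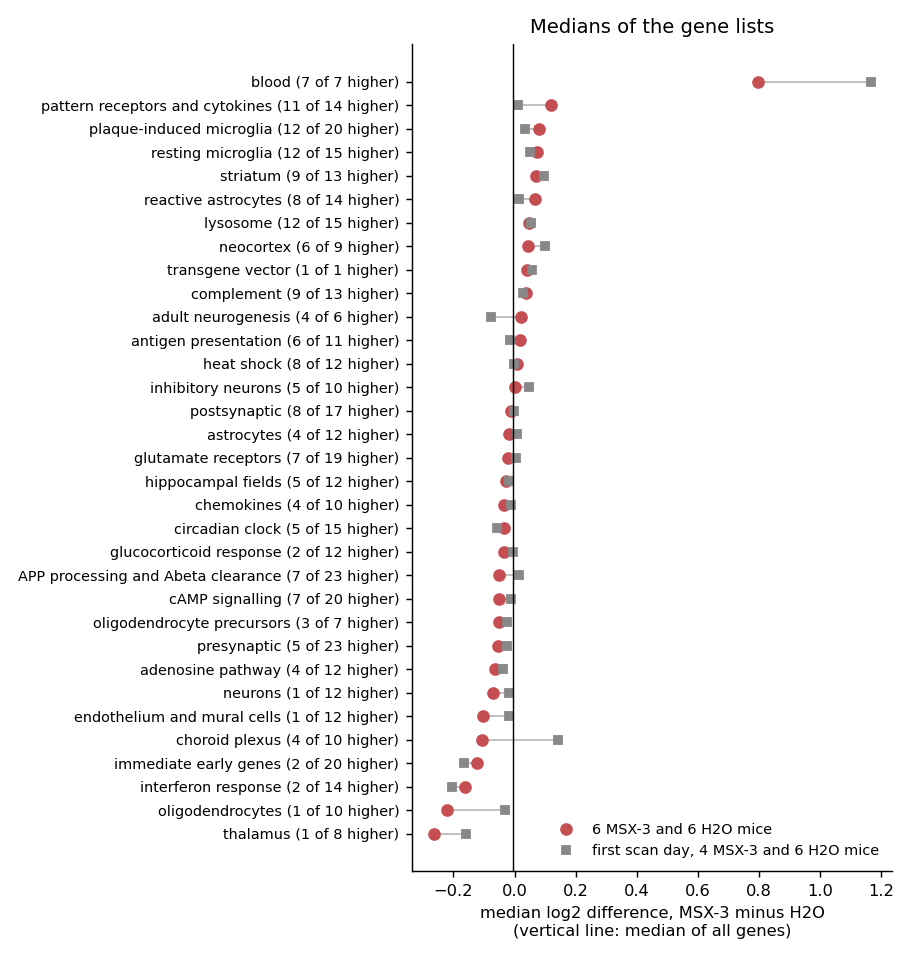
Median log2 difference between MSX-3 and H2O mice (x axis) of 33 gene lists, with the number of members that were higher, for all 12 mice (red circles) and for the first scan day (grey squares). The blood list stood at 0.80 and the thalamus list at -0.26, and several medians, such as those of oligodendrocyte and choroid plexus genes, moved toward or past 0 without the 2 second-day arrays.

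The MSX-3 difference was then compared with that in WT hippocampus, in a fit of all 24 hippocampus arrays with a genotype by agent term. Of 38128 probes 0 (0%) were called, the smallest adjusted p was 0.89, and 1852 probes (4.86%) had an unadjusted p under 0.05. Clec7a differed by 0.32 in APP/PS1 and by -0.40 in WT mice, and the difference between these was 0.72 (from 0.20 to 1.23, adjusted p = 0.89). In WT mice Clec7a lay at -5.36, -4.39 and -4.16 with MSX-3 and at -4.48, -4.22 and -3.87 with H2O, with overlap. Avpr1b gave -0.92 and 0.42, with a difference of -1.34 (from -1.97 to -0.71). The chemokine genes Ccl3 and Cxcl10 gave 0.71 (from -0.23 to 1.64) and -0.85 (from -1.68 to -0.02). All of these had an adjusted p of 0.89. Arrays of the second scan day were spread unevenly over the groups, with more in WT H2O mice than in any other group. APP/PS1 H2O mice had none. Scan day was not a term of this fit, and its part in these values was not tested.

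The cortex of the same 12 mice allowed a within-mouse comparison of the tissues. Of 36840 probes kept in both, 0 (0%) were called for the MSX-3 difference in hippocampus minus that in cortex, with a smallest adjusted p of 0.504, although 3580 probes (9.72%) had an unadjusted p under 0.05. Bace2 differed by -0.60 in hippocampus and by 0.23 in cortex, a tissue difference of -0.83 (from -1.31 to -0.35). For Adcy8 the values were -0.34 and 0.36, and the tissue difference was -0.70 (from -1.18 to -0.22). Drd2 gave 0.91 and -0.33, with a tissue difference of 1.24 (from 0.27 to 2.21). For App the tissue difference was -0.24 (from -0.46 to -0.02). Bace2, Adcy8, Drd2 and App each had an adjusted p of 0.504, and other named genes also had intervals that left out 0. Drd2 was well above background in 1 H2O hippocampus, and the second probes of App and Adcy8 differed by 0.15 and 0.02 in hippocampus. Slide and scan day were not terms of this fit, and their part in these values was not tested. Gfap differed by 0.25 and 0.24, and its tissue difference of 0.01 had an interval from -0.29 to 0.31. For Ccl4, Cd68 and Tlr2 the intervals of the tissue difference also held 0. Without MSX-3 mouse 266, 1 probe with no gene name passed both thresholds (tissue difference 1.85, adjusted p = 0.0149).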

How the data were processed

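Total RNA of hippocampus was hybridised, one colour (Cy3), to Agilent 60-mer mouse arrays. The authors deposited Agilent Feature Extraction 10.7.3.1 files, one per array, and the processed intensity of each spot was used (62976 spots, of which 59305 were not controls). The series matrix held the same values within a relative tolerance of 1e-06. Here log2 intensities were reduced by the log2 75th percentile of the non-control spots of the array, as in the study, and spots of a probe were averaged after removal of outlier flags. Probes were named through RefSeq accessions (32994 of 56605) or the study's probe tables (59), and 23552 stayed unnamed. Probes entered the tests if any of the hippocampus groups had 4 or more arrays well above background. A gene in a list was represented by its brightest kept probe. Arrays number 6 per group, which limits the precision, and hybridisation was on 7 slides over 2 scan days.

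Groups were compared with limma 3.58.1 (lmFit, eBayes, two-sided, Benjamini-Hochberg adjustment over all kept probes). The interaction used 24 hippocampus arrays, and the tissue difference used within-mouse differences. The code was tested on simulated data. The members and gene lists were chosen with earlier results of these data known. The text names genes that the study followed, the 5 with the smallest p in each direction, the member of each list with the smallest p in each direction, the 5 with the largest spread and any called probe, leave-one-out fits included. Predicted genes were not named, and some of the genes that the study followed are not reported here. Probes not well above background in a whole group are given as bounds, the mean of the brighter group against, per array of the other, the higher of the probe's own value and the lowest signal well above background. Other settings tried were normexp background correction on the median signal, quantile normalization, the percentile over kept probes, the deposited matrix, 3 filters, a trended robust prior, array weights, all 4 hippocampus groups, slide as a block and leaving out each mouse. The deposited matrix held the same values as the files used, so this setting, counted among the 12 others, could not change a result. The first scan day alone was added after seeing the data.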

Additional observations from a re-analysis of the deposited data

Results flagged for a closer look

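In 17 of 192 gene and group pairs (8.85%), 1 mouse lay apart from the other 5 of its group, judged by its gap to the nearest mouse as a share of the group's range. Chance alone gives about 1 in 20 such groups, but 5 of the genes had been chosen for their spread between mice, and these held 7 of the 17. Among the other genes the count was 10 of 182 (5.49%). In H2O mouse 259 this share was 0.852 for Folr1, 0.842 for Kcnj13, 0.815 for Sostdc1, 0.723 for Clic6 and 0.717 for Cd59a, all at the high end. In MSX-3 mouse 283 it was 0.843 for Sostdc1, 0.822 for Kcnj13, 0.683 for Folr1 and 0.631 for Ttr, also at the high end, and 0.629 for Dlg4 at the low end. These 2 mice had the highest levels of the choroid plexus list.

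Zfp438 gave 0.812, with H2O mouse 81 at 4.29 and the next mouse at -2.37. Dlg2 gave 0.807, with H2O mouse 325 lowest at 0.15. The remaining shares were 0.687 for Itgax (H2O mouse 323, highest), 0.64 for Rsad2 and 0.632 for Lef1 (H2O mouse 261, highest), 0.698 for Unc13b (MSX-3 mouse 266, highest) and 0.65 for Sec1 (MSX-3 mouse 281, lowest).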

How the results depend on the processing

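No paired analysis was possible because the compared groups hold different mice. The count of probes called stayed at 0 under the 12 other settings of the MSX-3 comparison, fits without single mice aside. Among these the smallest adjusted p was 0.191 (with the slide in the model). The fit with slide takes the MSX-3 difference only from the 2 slides that held both groups (4 MSX-3 and 2 H2O mice). Fits that dropped single mice called 0 to 1 (1 without MSX-3 mouse 281, Sec1). The count at an unadjusted p under 0.05 was 1469. It was 691 with normexp background correction and 934 among probes well above background on all 12 arrays. It ranged from 865 (without H2O mouse 261) to 2494 (without MSX-3 mouse 293), and was 967 without MSX-3 mouse 319. The difference from WT hippocampus stayed at 0 calls in every fit run, and that from cortex at 0 to 1 when single mice were left out (1 without MSX-3 mouse 266). A fit with scan day as a block was not run. No H2O array of these mice lay on the second day, so such a fit would take the MSX-3 difference from the first-day arrays. Of 96 named genes and probes, 25 had the other sign under at least 1 alternative, as did 22 of 33 list medians. The causes were not tested. With 6 mice per group and dim probes near background, the data did not tell apart the differences that lie inside an interval given.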

Other observations

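Zfp438, which encodes a zinc finger protein, was by far the highest in 1 tissue of 1 mouse. In the hippocampus of H2O mouse 81 it lay at 4.29, and in the cortex of the same mouse at -3.91. The next highest hippocampus value was -2.37 in H2O mouse 323, and the highest cortex value was -1.62 in MSX-3 mouse 266. Ttr stood at 7.56 in the hippocampus and 0.81 in the cortex of H2O mouse 259, and at 7.27 and -0.62 in MSX-3 mouse 283.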
